A study of Mus musculus with 18 samples.

Results

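Cell cycle and DNA replication genes were examined in cultured neurons of mouse dorsal root ganglia (DRG), which are clusters of sensory neurons beside the spinal cord. The 48 genes were taken by symbol from a list of proliferation genes, 20 acting in S phase and 28 in mitosis. They were chosen with earlier results of these data known. All 48 were found among the 17198 genes of the deposited table, and all 48 passed the filter on low values.

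The study, titled as one on Dynlrb1 in dynein transport and neuronal survival, compared wild-type mice (WT) with mice heterozygous for the tm1a allele of Dynlrb1, written Dynlrb1(tm1a/+) and called HET here. Dynlrb1 encodes a light chain of cytoplasmic dynein, and tm1a alleles are knockout-first insertions that leave the other copy of the gene intact. Total RNA was taken at 12, 24 and 48 h, with 3 cultures for each genotype at each time, 18 in all. The submitters describe these as biological repeats, with the numbers 1, 2 and 5 for the earlier times and 1, 2 and 3 for 48 h. Whether each culture came from its own animal is not given in the sources used here. Nor are the strain, the age, any other treatment or how the ganglia were dissociated. The p-values therefore measure the spread between these cultures, as left in the deposited values. The tm1a allele is in the germ line of the mouse, so every cell type in a HET culture carried it.

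Mature neurons do not divide. Cells that enter the cell cycle first switch on genes for nucleotide synthesis, for loading the MCM helicase onto DNA and for the replication fork, largely under E2F transcription factors. They then switch on the mitotic kinases, cyclins, kinetochore and cytokinesis genes, whose promoters often carry CHR and CCAAT elements read by the DREAM complex, B-Myb, FOXM1 and NF-Y. Cultures of DRG neurons also hold Schwann cells, satellite glia, fibroblasts and other cells that can divide, and RNA of the genes described here is therefore commonly read as a sign of such cells. In bulk RNA, fewer cells of a type and less RNA per cell cannot be told apart.

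Values are the authors' normalized counts unless FPKM (fragments scaled by transcript length and library size) is named. Their column totals ran from 41509705 to 41509874, so the depth of each library is unknown, and precision rests on the spread between cultures. Differences are on the log2(normalized count + 1) scale, which understates changes of low genes, given as difference ± standard error (SE). The SE of a gene rests on a spread estimated over all groups together, not on the compared groups alone. Tests were by limma across all 17198 genes with Benjamini-Hochberg adjustment and a threshold of 0.05, and "called" means past that threshold.

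Dynlrb1 was lower in each HET culture than in each WT culture of the same time: 5229 to 6674 over the 9 WT cultures and 2716 to 4087 over the 9 HET cultures. All 13 sensory neuron markers were present, none below 1910 in any culture. Markers of other cells were present too. The lowest value of any marker, 0.783, belonged to the neutrophil list, and no marker of the 8 lists was listed at 0. One library stood apart. Over all genes, HET culture 3 at 48 h lay at a mean absolute log2 distance of 0.408 from the mean of the other 2 cultures of its group and 0.251 from the mean of WT at 24 h. The other 5 cultures at 48 h were nearer to their own group (0.264 to 0.338) than to WT at 24 h (0.365 to 0.526). For comparisons that include HET at 48 h, counts of calls and median differences of the 48 genes from the fit without a block are given with and without that culture. It also enters the shared estimate of the spread in all other comparisons, which are given only with it.

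Between 12 and 48 h in WT, DNA replication and mitosis genes rose together. Of the 48 genes, 41 were called higher at 48 h and 0 lower: 16 of 20 S-phase genes and 25 of 28 mitotic genes. The background was broad, since 30% of all genes were called higher and 17.1% lower. The median log2 difference was 1.53 for S-phase genes and 1.58 for mitotic genes, against 0.11 over all genes. In 42 of the 48, all 3 cultures at 48 h lay above all 3 at 12 h, which was so for 34.6% of all genes. The normalization moved the median of all genes by about 0.1: it was 0.00688 in the authors' plain adjusted columns, where 40 of the 48 were called higher and 1, E2f1, lower (-0.45). The shares of all genes above are for the normalized counts, and those for the plain columns are not given here.

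Among the genes of nucleotide synthesis, Rrm2, the regulatory subunit of ribonucleotide reductase made mainly in S phase, changed most. In WT cultures Rrm2 read 85.6, 54.8 and 56.5 at 12 h, 132, 83.3 and 60.01 at 24 h, and 1040.4, 762 and 496 at 48 h. In HET cultures it read 39.1, 25.9 and 74.4 at 12 h, 115, 83.2 and 119 at 24 h, and 677, 405 and 116 at 48 h. Every WT culture at 48 h was far above every earlier one, while HET culture 3 at 48 h stayed within the range seen at 24 h. The WT difference was 3.49 ± 0.51 (adjusted p = 8.12e-05, limma). Rrm1, the constitutive partner subunit, rose by 1.70 and Tyms, thymidylate synthase, by 1.60. Tk1, the thymidine kinase of the salvage path, was not called (0.66, adjusted p = 0.155).

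The genes that load and form the replicative helicase rose as well. Cdc6, which recruits the helicase to origins, read 46.3, 43.5 and 63.0 at 12 h, 66.4, 30.9 and 36.6 at 24 h, and 367, 227 and 174 at 48 h in WT. In HET it read 15.6, 34.4 and 42.7 at 12 h, 51.2, 49.8 and 51.7 at 24 h, and 267, 166 and 61.4 at 48 h. The times did not overlap between 24 and 48 h in either genotype, although HET culture 3 exceeded the 24 h cultures only slightly. The WT difference between 48 and 12 h was 2.25 ± 0.46 (adjusted p = 0.000891). All 6 measured helicase subunits rose, from 0.59 for Mcm4 to 2.19 for Mcm5. Cdt1, the other loader, whose protein is destroyed as S phase starts, was the exception: it was -0.43 against 12 h (adjusted p = 0.257) and fell by 0.89 between 24 and 48 h (adjusted p = 0.0370).

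At the replication fork and in copying of DNA methylation, the change was steep for 2 genes and small for 2 others. 2810417H13Rik, named Pclaf in RefSeq, encodes a small partner of the sliding clamp. It read 15.001, 23.5 and 7.49 at 12 h, 26.9, 11.1 and 15.8 at 24 h, and 829.99, 758 and 188 at 48 h in WT. HET cultures gave 1.36, 9.16 and 16.5 at 12 h, 26.3, 10.6 and 18.7 at 24 h, and 278, 95.9 and 9.97 at 48 h. WT at 48 h was apart from all earlier cultures, and 2 of the 3 HET cultures were too. This was the largest WT difference of the 48 genes, 5.04 ± 0.94 (adjusted p = 0.000458).

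Uhrf1 brings the maintenance methyltransferase Dnmt1 to newly copied DNA. It read 55.1, 46.5 and 42.03 at 12 h, 121, 69.4 and 80.8 at 24 h, and 1083, 1134 and 465 at 48 h in WT. In HET it read 19.5, 17.4 and 39.8 at 12 h, 167, 97.8 and 140.4 at 24 h, and 525, 308 and 91.8 at 48 h. Each step in WT was without overlap, whereas HET culture 3 at 48 h was below all HET cultures at 24 h. The WT difference was 4.10 ± 0.50 (adjusted p = 3.22e-05). Dnmt1 itself rose by 0.91 and Pcna, the sliding clamp, by 0.42. Of the remaining S-phase genes, Ccne1 and Ccne2, the cyclins of the G1/S transition, rose by 0.84 and 1.94, while E2f1 (-0.34, adjusted p = 0.0949) and Ezh2, a histone methyltransferase (0.22, adjusted p = 0.288), were not called.

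Mitotic genes rose across kinases, kinetochore, spindle and cytokinesis. Top2a, the topoisomerase that untangles chromosomes, read 29.6, 58.8 and 47.6 at 12 h, 135, 42.4 and 60.9 at 24 h, and 1662, 1140.3 and 517 at 48 h in WT. The HET values were 27.02, 46.9 and 89.5 at 12 h, 78.4, 61.2 and 91.8 at 24 h, and 871, 459.9 and 105 at 48 h. WT cultures at 12 and 24 h overlapped and those at 48 h were apart from both; in HET the lowest at 48 h was just above the highest at 24 h. The WT difference was 4.48 ± 0.64 (adjusted p = 7.3e-05).

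Aurkb, the kinase of the chromosomal passenger complex, read 14.1, 5.16 and 3.30 at 12 h, 20.8, 7.97 and 16.3 at 24 h, and 200.02, 172 and 74.6 at 48 h in WT. In HET it read 6.90, 10.7 and 10.3 at 12 h, 16.96, 13.9 and 12.3 at 24 h, and 119.6, 59.6 and 28.9 at 48 h. No culture at 48 h of either genotype fell within the range of the earlier times. The WT difference was 4.23 ± 0.53 (adjusted p = 3.75e-05), and Birc5, another subunit of that complex, rose by 1.57.

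Ccna2, the cyclin of S phase and early mitosis, read 53.8, 40.0 and 45.5 at 12 h, 73.96, 31.7 and 33.3 at 24 h, and 540.3, 455 and 297 at 48 h in WT. Its HET levels were 29.6, 27.6 and 46.8 at 12 h, 26.7, 35.04 and 35.5 at 24 h, and 479, 245 and 52.97 at 48 h. Levels at 12 and 24 h overlapped in both genotypes and those at 48 h were apart from them within each genotype. The WT difference was 3.15 ± 0.55 (adjusted p = 0.00028).

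Cdk1, the kinase that drives entry into mitosis, read 38.6, 40.2 and 16.6 at 12 h, 38.9, 30.2 and 42.7 at 24 h, and 277, 252 and 169 at 48 h in WT. In HET it read 25.1, 19.1 and 28.9 at 12 h, 35.3, 27.6 and 48.8 at 24 h, and 189, 121 and 40.01 at 48 h. WT cultures at 48 h were apart from all earlier cultures and overlapped with HET at 48 h, and HET culture 3 at 48 h fell within the HET range at 24 h. The WT difference was 2.90 ± 0.45 (adjusted p = 0.000126).

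**Figure D1:**
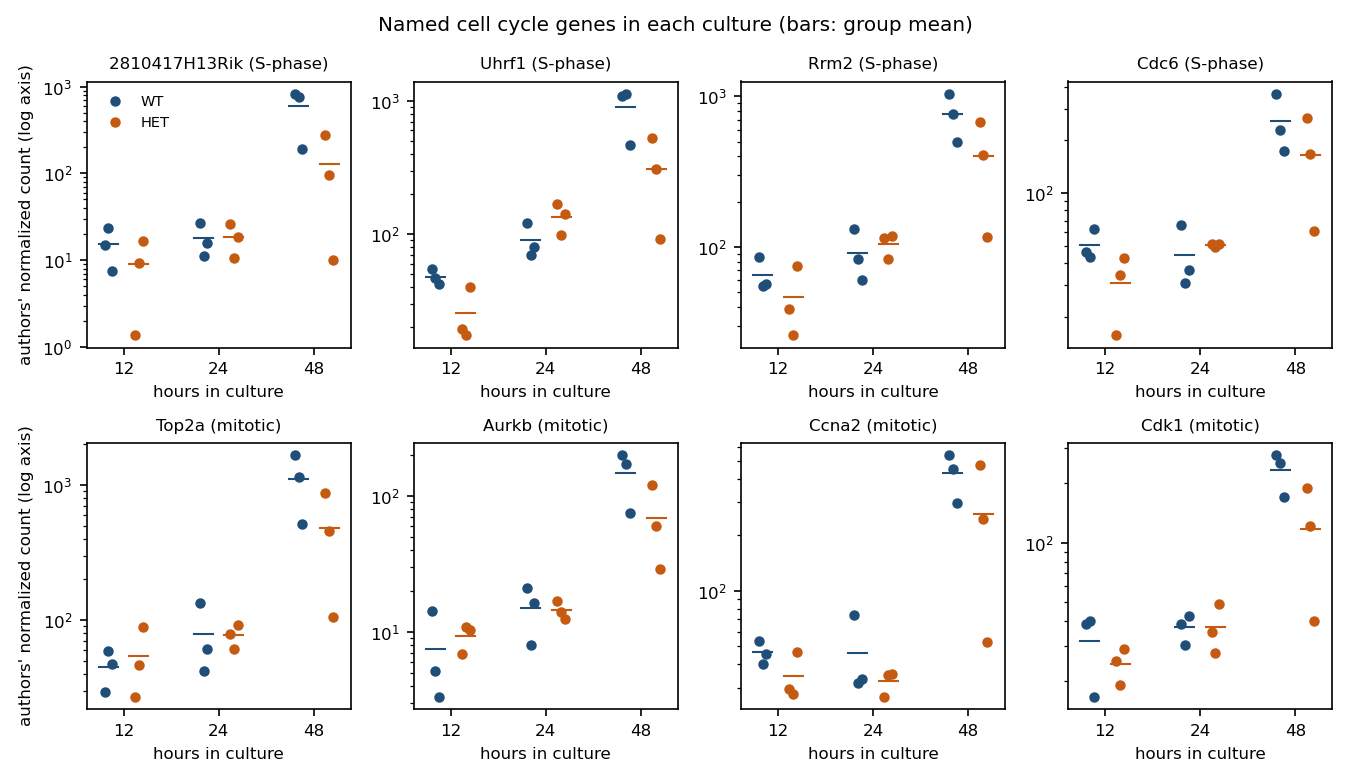
Authors' normalized counts (log axis) of 8 genes against hours in culture, 1 point per culture and a bar at each group mean, WT in blue and HET in orange. Each gene has its own axis range. At 48 h the WT points sit above all points at 12 and 24 h, and in each panel 1 HET point at 48 h, culture 3, lies well below the other 2.

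The other mitotic genes followed with smaller differences. B-type cyclin Ccnb1 rose by 1.87, while Ccnb2 was not called (0.91, adjusted p = 0.0627). Foxm1, a transcription factor for mitotic genes, rose by 1.42 and Plk1, Polo-like kinase, by 1.06. Of the spindle checkpoint and anaphase genes, Bub1 (2.11), Ttk (1.59), Cdc20 (1.5) and Ube2c (1.25) rose and Bub1b was not called (0.25, adjusted p = 0.515). The kinetochore and centromere genes Cenpf, Nuf2, Cenpe, Ndc80 and Cenpa rose by 1.82 to 2.39. Among spindle genes Hmmr (2.25), Prc1 (1.15), Tpx2 (0.52) and Aurka (0.47) rose, and Nusap1 was not called (0.72, adjusted p = 0.145). The cytokinesis genes Ect2, Anln and Racgap1 rose by 0.86 to 1.27, and Mki67, the proliferation marker Ki-67, by 2.24.

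Most of this change came after 24 h. Between 24 and 48 h in WT, 41 of the 48 genes were called higher and 1, Cdt1, lower, where 17.4% of all genes were called higher and 10.3% lower. Between 12 and 24 h in WT, 1 of the 48 was called higher, Dnmt1 (0.53 ± 0.14, adjusted p = 0.0418), and 0 lower, with 2.96% of all genes called higher and 0.657% lower. That single call was lost in each of the 6 fits that left out 1 culture of the groups compared, which called 0 (6 to 9 at an unadjusted p under 0.05).

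**Figure D2:**
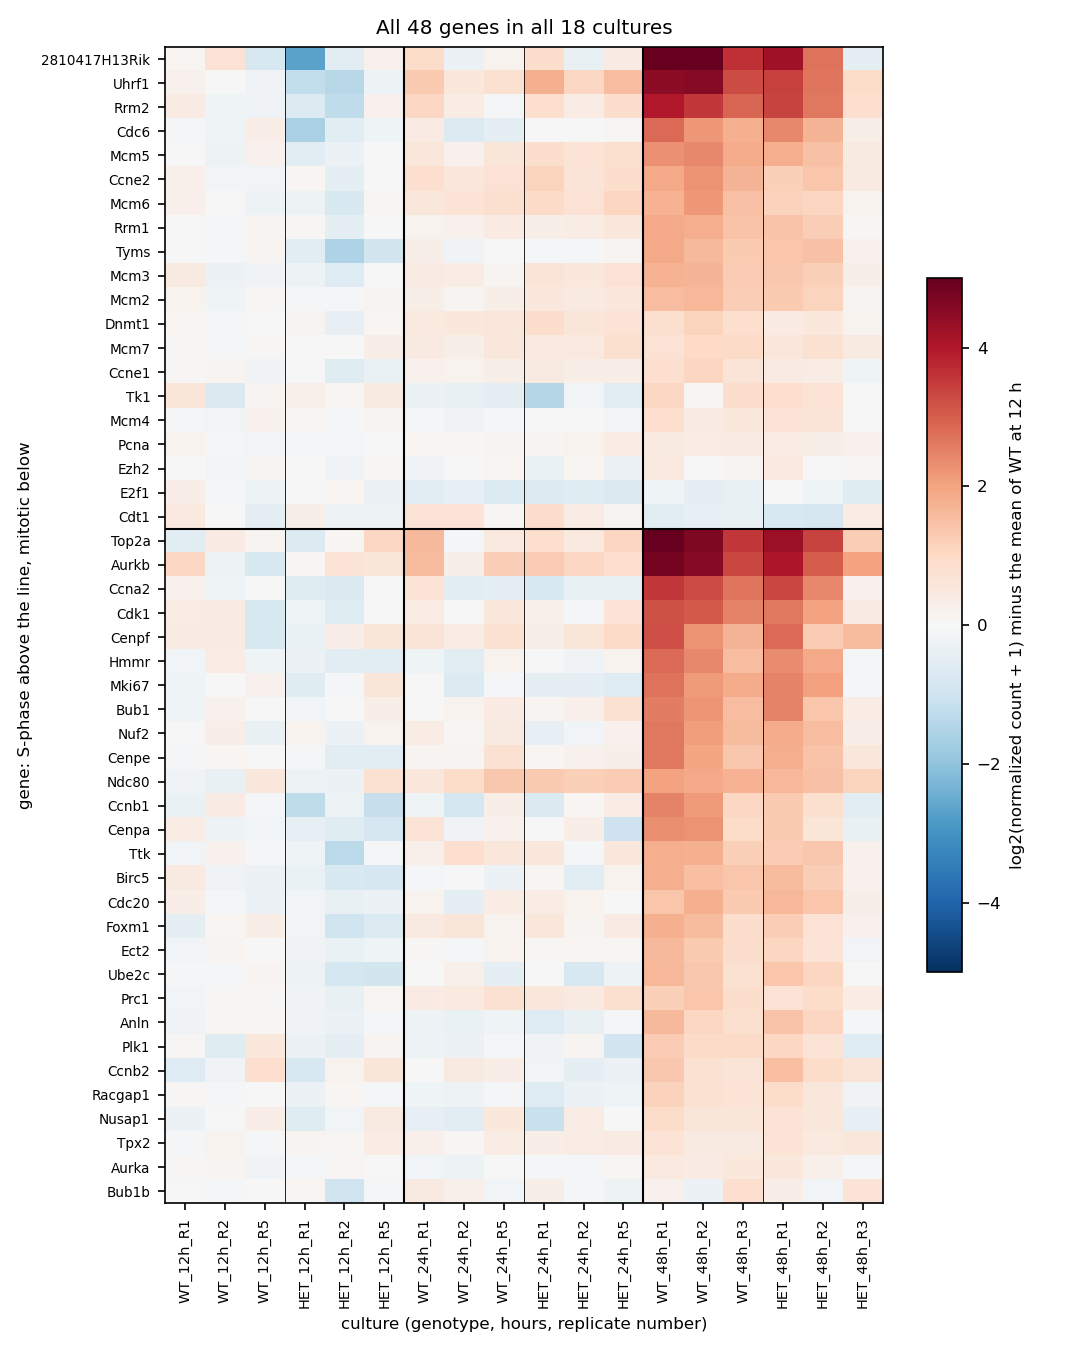
Log2(normalized count + 1) of each of the 48 genes (rows, S-phase above the line) in each of the 18 cultures (columns), minus the mean of WT at 12 h; red is higher and blue lower, and the colour scale ends at -5 and 5. The 3 WT columns at 48 h and HET cultures 1 and 2 at 48 h are red in most rows, and HET culture 3 at 48 h is pale.

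Genes that were low at 12 h changed most. To keep the level apart from the WT difference, it was taken from HET cultures at 12 h and compared per length, in FPKM. The 12 genes with the highest level (2.79 to 23.4 FPKM) had a median WT difference between 48 and 12 h of 0.72 (log2), and the 12 with the lowest (0.0759 to 0.255 FPKM) had 2.33. Across the 48 genes the rank correlation was -0.75 (Spearman's rho; genes are not independent and share libraries), against -0.054 across all genes. Pcna (23.4 FPKM), Dnmt1 (16.7 FPKM) and Cdt1 (12.3 FPKM) led the order of levels, and Tpx2 (3.40 FPKM), Bub1b (2.83 FPKM) and Aurka (2.66 FPKM) led among mitotic genes. Replication genes were thus mostly at higher levels than mitotic genes before the change, with 10 S-phase and 2 mitotic genes among the 12 highest.

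**Figure D3:**
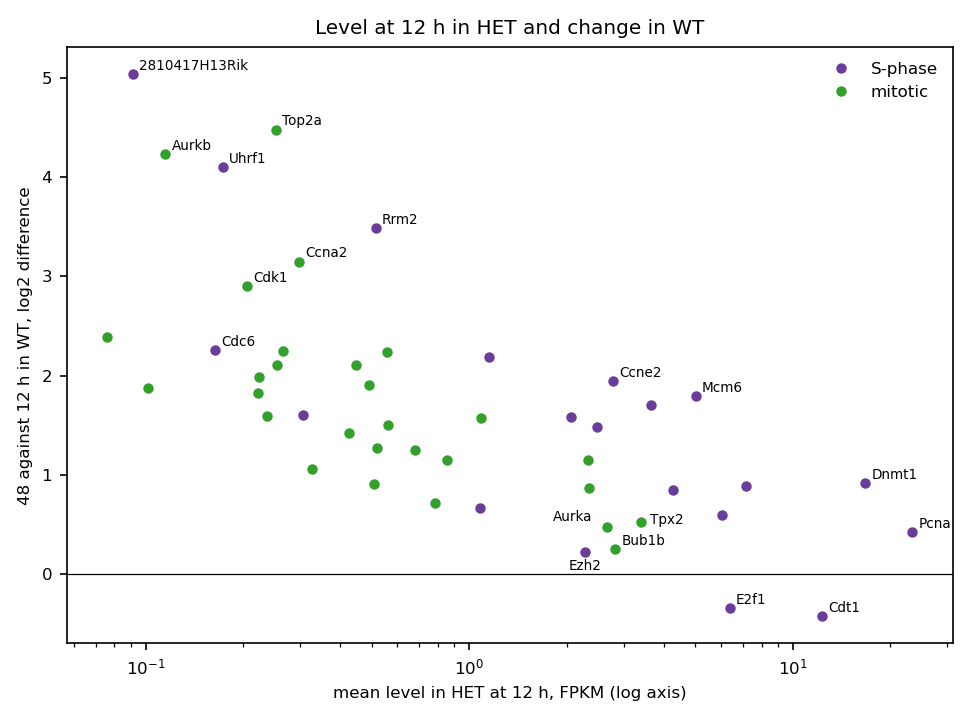
Log2 difference between 48 and 12 h in WT against the mean FPKM of HET cultures at 12 h (log axis), 1 point per gene, S-phase in purple and mitotic in green. The points slope downward from 2810417H13Rik at 5.04 to Cdt1 and E2f1, which lie below 0.

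The promoters of these genes are shown because the 2 groups of genes moved together while their upstream sequences differ in the elements known from cell cycle control. Promoter sequences were available from RefSeq (GRCm38.p6) for 42 of the 48 genes, the window from 250 bases before to 50 bases from the start, and searched on both strands. The words were TTTCCCGC, TTTCGCGC, TTTGCCGC and TTTGGCGC for E2F sites, TTTGAA for the CHR element and CCAAT for the CCAAT box. The capitals below mark any match. For Uhrf1, RefSeq gives 2 windows and the one with the E2F word is printed. The stretches run from 250 bases before the start to the tenth base of the transcript.
2810417H13Rik (Pclaf), chr9:65890073-65890332, plus strand: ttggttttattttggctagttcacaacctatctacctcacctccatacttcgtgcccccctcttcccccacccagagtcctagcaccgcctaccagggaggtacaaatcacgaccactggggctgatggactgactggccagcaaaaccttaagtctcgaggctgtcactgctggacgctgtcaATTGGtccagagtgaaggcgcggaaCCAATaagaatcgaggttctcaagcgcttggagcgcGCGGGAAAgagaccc
Uhrf1, chr17:56304063-56304322, plus strand: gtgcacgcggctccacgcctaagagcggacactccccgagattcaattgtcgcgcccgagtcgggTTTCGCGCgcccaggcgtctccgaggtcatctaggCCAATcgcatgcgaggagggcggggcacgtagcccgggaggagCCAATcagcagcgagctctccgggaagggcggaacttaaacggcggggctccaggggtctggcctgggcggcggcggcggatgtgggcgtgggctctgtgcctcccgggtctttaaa
Rrm2, chr12:24708004-24708263, plus strand: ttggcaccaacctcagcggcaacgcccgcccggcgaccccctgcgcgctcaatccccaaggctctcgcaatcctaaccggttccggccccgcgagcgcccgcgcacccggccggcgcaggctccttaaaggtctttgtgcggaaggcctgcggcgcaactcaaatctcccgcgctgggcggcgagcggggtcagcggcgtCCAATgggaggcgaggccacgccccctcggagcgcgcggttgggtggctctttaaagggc
Cdc6, chr11:98907901-98908160, plus strand: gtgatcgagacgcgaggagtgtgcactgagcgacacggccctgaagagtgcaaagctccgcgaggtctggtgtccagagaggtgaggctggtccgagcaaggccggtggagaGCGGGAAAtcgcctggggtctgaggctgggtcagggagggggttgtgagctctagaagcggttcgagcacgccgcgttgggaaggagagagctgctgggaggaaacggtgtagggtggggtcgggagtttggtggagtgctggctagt
Top2a, chr11:99024180-99024439, minus strand: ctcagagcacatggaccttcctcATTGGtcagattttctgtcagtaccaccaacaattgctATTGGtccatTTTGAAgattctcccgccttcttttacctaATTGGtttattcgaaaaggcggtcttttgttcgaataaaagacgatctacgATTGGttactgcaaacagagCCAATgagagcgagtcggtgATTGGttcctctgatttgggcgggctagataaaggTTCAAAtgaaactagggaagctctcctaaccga
Cdk1, chr10:69352903-69353162, minus strand: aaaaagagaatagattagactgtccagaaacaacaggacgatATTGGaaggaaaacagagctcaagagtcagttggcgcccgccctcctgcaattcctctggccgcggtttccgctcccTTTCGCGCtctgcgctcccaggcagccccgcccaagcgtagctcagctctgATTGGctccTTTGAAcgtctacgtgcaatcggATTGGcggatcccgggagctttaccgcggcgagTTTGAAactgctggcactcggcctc

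Counting the start base as 0, the E2F word of 2810417H13Rik spans bases -5 to 2, that of Cdc6 -138 to -131 and that of Uhrf1 -185 to -178, while the Rrm2 window holds a CCAAT box at -50 to -46 and none of the 4 E2F words. Top2a holds CHR matches at -179 to -174 and -23 to -18, and Cdk1 at -71 to -66 and -15 to -10 beside an E2F word at -131 to -124. An E2F word was present in 10 of 18 S-phase promoters and 1 of 24 mitotic promoters, Cdk1, against 2.6% of all 27025 genes with a window. The CHR word was present in 18 of 24 mitotic promoters and in 2 of 18 S-phase promoters, Mcm2 and Dnmt1, against 20.2% of all genes. CCAAT was in 19 of 24 mitotic and 12 of 18 S-phase promoters (41.1% of all genes), and 16 mitotic promoters held both CHR and CCAAT, against 8.97% of all genes. In the members' windows 5 pairs of sites of the same motif overlapped, and 1 pair of different motifs, in Mcm7. A match is a description of the letters and not evidence of binding, and a window without a match may hold other forms of the element.

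S-phase genes with an E2F word and those without had median WT differences between 48 and 12 h of 1.68 (10 genes) and 1.16 (8 genes). For mitotic genes with and without the CHR word they were 1.38 (18 genes) and 1.93 (6 genes). These splits were not tested.

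Many related genes outside the 48 rose in WT as well, in a comparison where 30% of all genes were called higher and 17.1% lower. Their lists were chosen with earlier results of these data known. Of 46 other replication genes, 37 were called higher at 48 against 12 h and 0 lower, with a median of 0.84. The largest differences were 3.91 for Clspn, which holds the checkpoint kinase at the fork, 2.03 for Exo1, an exonuclease, 1.89 for Chaf1b, a histone chaperone subunit, and 1.65 for Rfc5, a subunit of the clamp loader. Of 56 other mitotic genes measured, 43 were called higher and 1, Cit, lower (-0.68), with a median of 1.21. They were led by Pbk (3.85), Dlgap5 (3.55), Kif18b (3.23) and Kif4 (3.19).

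Further lists held G1 cyclins, kinases and E2F family genes, with Mybl2, Lin9 and Lin54 among them, and cell cycle inhibitors. Their counts lay nearer to those shares of all genes (30% higher and 17.1% lower). Of 20 G1 cyclins, kinases and E2F family genes, 9 were called higher and 3 lower in WT between 12 and 48 h. E2f8 (3.07), the D-type cyclin gene Ccnd1 (2.16), Mybl2, which encodes B-Myb (2.12), and Mycn (1.85) rose. Myc (-1.20), Lin54 (-0.61) and Lin9 (-0.42) fell; the last 2 encode subunits of the complex that binds CHR elements. Of 18 inhibitors, 7 were called higher and 2 lower. Cdkn2a (1.91), Rbl1 (1.32), Ccng1 (0.98) and Cdkn2c (0.94) were the largest, and Cdkn1a, the p21 gene, was not called (0.03, adjusted p = 0.926).

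Markers of cells other than neurons moved over the same interval, and their part in the result was not tested. Their counts stand against 30% of all genes called higher and 17.1% lower. Between 12 and 48 h in WT, 5 of 8 fibroblast markers were called higher and 0 lower, among them Col1a2 (2.87), Col3a1 (2.07), Col1a1 (1.92) and Postn (1.36). The other 3 had negative differences, down to -0.51, and were not called. The summed level of the fibroblast list was 5899 to 13646 at 12 h and 19348 to 30360 at 48 h in WT. Of 12 Schwann cell markers, 2 were called higher, among them Pmp2 (4.52), and 4 lower, and the summed level was 44616 to 55002 at 12 h and 39965 to 41003 at 48 h. Macrophage markers had 3 of 9 called higher and 1 lower, with sums of 1367 to 1881 and 2506 to 4081. Satellite glia markers had 1 of 5 called higher and 3 lower (sums of 28924 to 38786 and 20924 to 23368), and endothelial and pericyte markers 1 of 10 higher and 3 lower (15122 to 18232 and 12786 to 14660). Neutrophil lineage markers had 6 of 8 called lower and the 3 measured erythroid markers were all called lower, with sums of 221 to 6503 against 97 to 146 and of 189 to 1058 against 13 to 31. Sensory neuron markers had 2 of 13 called higher and 8 lower, with sums of 585429 to 657582 and 504991 to 556731.

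**Figure D4:**
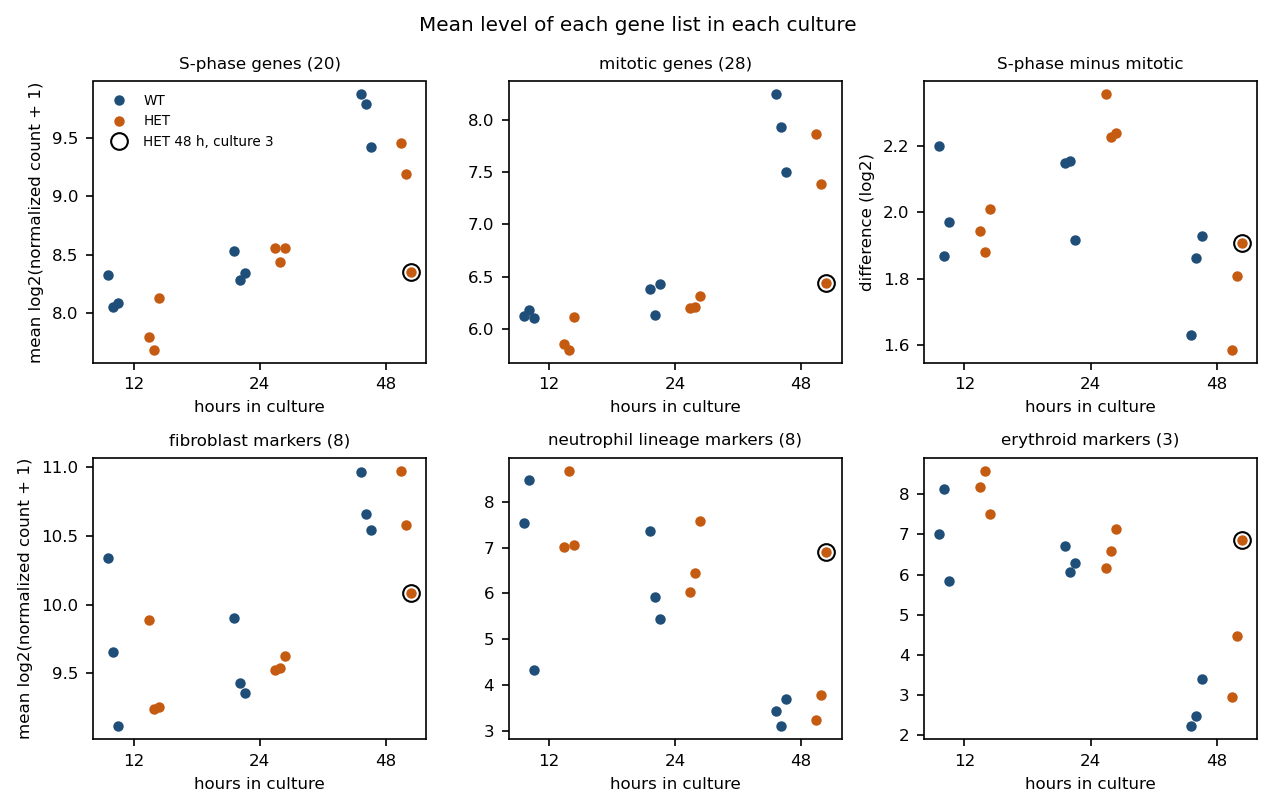
Mean log2(normalized count + 1) over the genes of each list in each culture against hours in culture, WT in blue and HET in orange, with the difference between the S-phase and mitotic means in the upper right panel. The black ring marks HET culture 3 at 48 h, which is the lowest of its time for the S-phase (8.35) and mitotic (6.44) genes and the highest for the neutrophil (6.91) and erythroid (6.87) markers.

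In HET cultures, S-phase genes were called higher already at 24 h. Between 12 and 24 h 13 of the 48 were called higher and 1 lower, with 13.1% of all genes called higher and 5.76% lower. The 13 were 10 S-phase genes, Tyms, Pcna, Mcm3, Mcm5, Mcm6, Mcm7, Uhrf1, Dnmt1, Ccne1 and Ccne2, and 3 mitotic genes, Prc1, Ndc80 and Foxm1, and the gene called lower was E2f1 (-0.62 ± 0.16, adjusted p = 0.0149). The median difference was 0.73 for S-phase genes and 0.35 for mitotic genes, against 0.08 over all genes. The largest was Uhrf1 at 2.42 ± 0.50 (adjusted p = 0.00414). E2f1 had a similar difference in WT over this interval, -0.55 ± 0.16, which was not called (adjusted p = 0.0685, limma). With the replicate number as a block, E2f1 was called lower in WT too (adjusted p = 0.0274, limma).

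Mcm6, a helicase subunit, shows the pattern. It read 609, 428 and 775 at 12 h, 1420.4, 1198 and 1538 at 24 h, and 1629, 1557 and 837 at 48 h in HET, and 875, 733 and 613, then 1076, 1189 and 1287, then 2448, 3288 and 2032 in WT. In HET 24 h was apart from 12 h and overlapped with 48 h, while in WT the 3 times did not overlap. Ccne2, the cyclin E2 gene, read 412, 284 and 387 at 12 h, 851, 613 and 714 at 24 h, and 885, 1011 and 529 at 48 h in HET. In WT it read 468, 355 and 356, then 701, 577 and 652, then 1442, 1873 and 1254, again without overlap between times. The same step between 12 and 24 h was not called in WT without a block for Mcm6 (0.69, adjusted p = 0.115) or Ccne2 (0.72, adjusted p = 0.0754). With the replicate number as a block, limma called both steps in WT (adjusted p = 0.0415 and 0.025). That fit called 881 of all 17198 genes higher and 337 lower.

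A step called in HET and not in WT does not show a difference between genotypes. The test of the difference itself, the interaction of genotype with 24 against 12 h, called 0 of the 48 genes and 0 of all genes in limma. Of the 48, 2 had an unadjusted p under 0.05, Tyms (0.94 ± 0.43) and Uhrf1 (1.55 ± 0.70), both with an adjusted p of 0.998. HET culture 2 at 12 h was the lowest of its group in 29 of the 48 genes, against 36.7% of all genes. Without that culture, 4 of the 48 were called between 12 and 24 h in HET: Mcm6, Uhrf1, Dnmt1 and Ccne2, with 6.63% of all genes called. Without HET culture 5 at 24 h, 8 were called, with 10.7% of all genes.

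The mean log2 level of the S-phase genes minus that of the mitotic genes summarises the balance of both groups. For WT at 12, 24 and 48 h it was 2.01 ± 0.17 (SD, n = 3), 2.07 ± 0.14 and 1.81 ± 0.16. For HET it was 1.95 ± 0.07, 2.27 ± 0.07 and 1.77 ± 0.17. All 3 HET cultures at 24 h (2.23 to 2.36) lay above every other culture of the study, of which the highest was at 2.20. The balance at 48 h overlapped between genotypes, 1.63 to 1.93 in WT and 1.59 to 1.91 in HET, and HET culture 3 had the highest value of its group.

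Between 12 and 48 h in HET, 34 of the 48 genes were called higher and 0 lower, where 10.6% of all genes were called higher and 3.62% lower. These were 14 S-phase and 20 mitotic genes, with median differences of 0.94 and 1.35 against 0.11 over all genes. Uhrf1 (3.31 ± 0.50), 2810417H13Rik (3.15 ± 0.94), Rrm2 (2.88 ± 0.51), Top2a (2.82 ± 0.64), Aurkb (2.57 ± 0.53), Ccna2 (2.42 ± 0.55), Cdc6 (2.26 ± 0.46) and Cdk1 (1.97 ± 0.45) rose, with adjusted p from 0.0121 to 0.036. The 14 not called were Cdt1, E2f1, Tk1, Ezh2, Mcm4 and Ccne1 in S phase and Aurka, Nusap1, Racgap1, Plk1, Bub1b, Ccnb2, Cenpa and Ccnb1 in mitosis. Without HET culture 3 at 48 h, 42 were called higher, and the 6 not called were Tk1, Cdt1, E2f1, Ezh2, Bub1b and Nusap1. That fit called 28.4% of all genes either way, and the medians were 1.32 for S-phase and 1.74 for mitotic genes. Without HET culture 2 at 12 h, or HET culture 1 or 2 at 48 h, 0 of the 48 and 0 of all genes passed the threshold in limma, with 35 to 38 of the 48 at an unadjusted p under 0.05 and median differences of 0.94 to 1.09.

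Between 24 and 48 h in HET, 4 genes were called higher, all mitotic, where 1.42% of all genes were called higher and 1.08% lower (2.49% either way). They were Ccna2 (2.48 ± 0.55), Mki67 (2.02 ± 0.47), Nuf2 (1.36 ± 0.35) and Anln (1.17 ± 0.29). Mki67 read 155, 159.5 and 141 at 24 h and 1225, 921 and 208 at 48 h, so that culture 3 was only slightly above 24 h. Without any 1 of the other 5 cultures of these groups, limma called 0 of the 48 (17 to 25 at an unadjusted p under 0.05). Without culture 3, 28 genes were called higher, 11 S-phase and 17 mitotic, and Cdt1 was called lower (-1.24), with 14.9% of all genes called either way. The median differences then were 0.67 for S-phase genes and 1.37 for mitotic genes.

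At 48 h the cell cycle genes were mostly lower in HET than in WT, by an amount that the test without pairing did not call. The difference HET minus WT was negative for 43 of the 48 genes, with a median of -0.63 for S-phase and -0.68 for mitotic genes against -0.03 over all genes. In limma 0 of the 48 were called, with 0% of all genes called, and 23 of the 48 had an unadjusted p under 0.05 (3782 of all genes). Nearest to the threshold were Ccne2 (-0.95 ± 0.22, adjusted p = 0.0516), Dnmt1 (-0.54 ± 0.14, adjusted p = 0.0558) and Mcm6 (-0.98 ± 0.25, adjusted p = 0.056). Without HET culture 3 these differences were -0.67, -0.44 and -0.67. In 7 genes every HET culture was below every WT culture: Pcna, Mcm5, Mcm6, Dnmt1, Ccne1, Ccne2 and Ndc80; this was so for 14.4% of all genes.

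The replicate numbers were taken to pair the cultures at 48 h, because the deviations of each same-numbered pair from their group means were correlated across genes (0.209 to 0.461). That pairing was inferred from these same data, and correlations between cultures of different numbers are not given here. What same-numbered cultures share is not known, so the calls with the block rest on that choice. The block fit carried number terms at 12 and 24 h as well. With the number as a block, limma called 19 of the 48 lower and 0 higher, where 7.29% of all genes were called lower and 12.3% either way. They were 11 S-phase genes, 2810417H13Rik, Uhrf1, Rrm2, Rrm1, Mcm2, Mcm3, Mcm5, Mcm6, Dnmt1, Ccne1 and Ccne2, and 8 mitotic genes, Top2a, Ccnb1, Cenpa, Cdk1, Hmmr, Cenpe, Ect2 and Prc1. The largest differences were -2.89 ± 0.94 for 2810417H13Rik (adjusted p = 0.00963 with the block and 0.0944 without), -1.75 ± 0.50 for Uhrf1 (0.00338 and 0.0695) and -1.51 ± 0.64 for Top2a (0.0124 and 0.179), with SEs from the fit without the block. Over all alternatives their adjusted p ran from 0.00963 to 0.463, from 0.00338 to 0.409 and from 0.0108 to 0.713. Without HET culture 3, in the fit without the block, the differences were -1.58 for 2810417H13Rik, -1.04 for Uhrf1 and -0.65 for Top2a. Of the 48, 8 were lower and 0 higher at 48 h by the adjusted p in the authors' deposited table, all 8 from S phase: Rrm1, Mcm5, Mcm6, Uhrf1, Dnmt1, Ccne1, Ccne2 and 2810417H13Rik. That table called 5.98% of all genes in the comparison.

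Pair by pair, HET was lower than WT at 48 h in 43 of the 48 genes for number 1, 41 for number 2 and 46 for number 3. Over all genes, HET was lower in 53.9%, 52.9% and 56%. The median differences of the 48 genes were -0.37, -0.49 and -1.0, so the third pair was the widest. In 38 genes HET was lower in all 3 pairs, as it was in 30% of all genes. For 2810417H13Rik, HET read 278, 95.9 and 9.97 where WT read 829.99, 758 and 188.

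**Figure D5:**
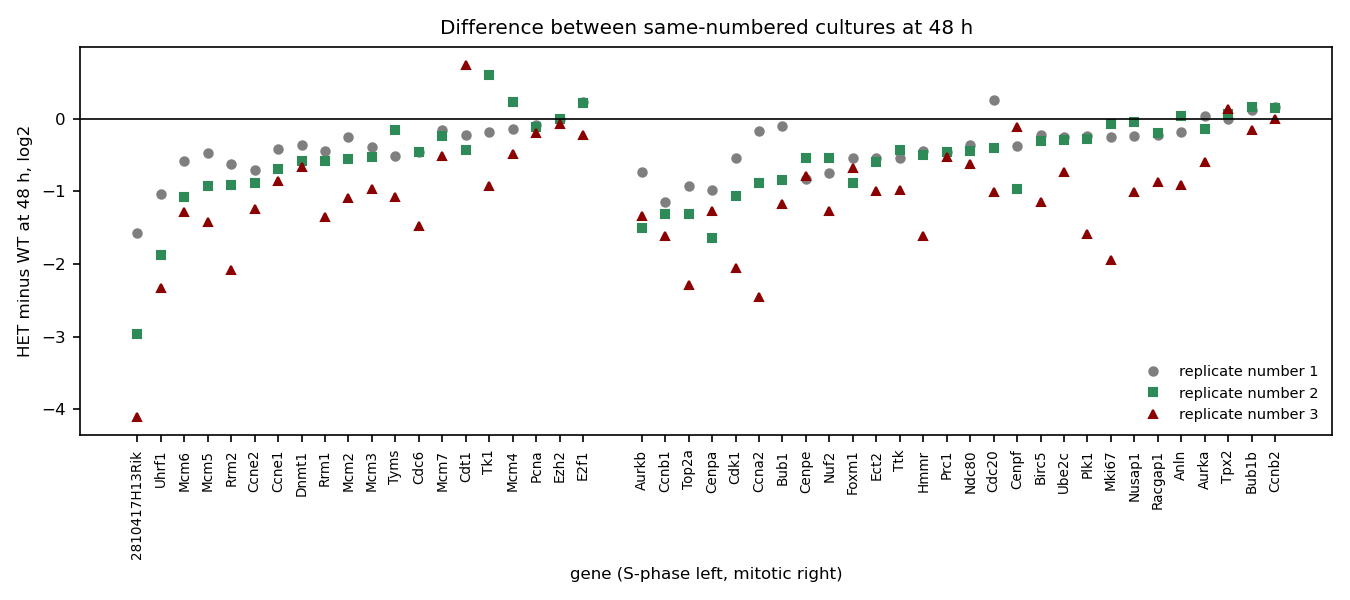
Log2 difference HET minus WT at 48 h for each gene (S-phase left, mitotic right, ordered by median), with 1 symbol per replicate number. Most symbols lie below 0, and the triangles of number 3 are the lowest for many genes.

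The difference at 48 h was smaller without HET culture 3. That culture was the lowest of its group in 43 of the 48 genes, against 44.7% of all genes. Without it, 0 of the 48 were called in limma (7 at an unadjusted p under 0.05), 39 were negative, and the median difference was -0.34 for S-phase and -0.25 for mitotic genes. With the block and without it, a setting chosen after seeing the data, 3 were called lower, Rrm1 (-0.52), Uhrf1 (-1.46) and Ccne2 (-0.80), with 3.86% of all genes called. Leaving out WT culture 3 gave 8 calls (5.41% of all genes), HET culture 1 gave 12 (4.28%), and HET culture 2 gave 4 (2.98%): Mcm6, Dnmt1, Ccne1 and Ccne2. HET culture 3 held the highest sums of its time for neutrophil lineage markers (1818, against 97 to 183 in the other 5 cultures at 48 h) and erythroid markers (447, against 13 to 72), and the lowest fibroblast sum (13622, against 19348 to 30360). Their part in the difference was not tested.

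Other cell cycle genes had the same sign at 48 h. The difference HET minus WT was negative in 41 of 46 other replication genes (median -0.31) and in 48 of 56 other mitotic genes (median -0.39), with 0 called in limma (20 and 21 at an unadjusted p under 0.05). With the replicate number as a block, 11 and 13 of them were called lower and 0 higher, where 7.29% of all genes were called lower. Without HET culture 3 and without the block, the medians were -0.19 and -0.16.

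At 12 h, limma called 0 of the 48 genes between genotypes (2 at an unadjusted p under 0.05), with 0.00581% of all genes called. The difference was negative in 38 of the 48, with a median of -0.17. In 9 genes every HET culture was below every WT culture (8% of all genes): Tyms, Cdc6, Uhrf1, Birc5, Cenpa, Cenpe, Ube2c, Ect2 and Hmmr. At 24 h limma called 0 (0 at an unadjusted p under 0.05), with 0.00581% of all genes called, and 20 of the 48 were negative. There the S-phase genes had a median of 0.15 and the mitotic genes of -0.03. In 6 S-phase genes every HET culture was above every WT culture (2.81% of all genes): Pcna, Mcm2, Mcm3, Mcm5, Dnmt1 and Ccne1. In the mitotic gene Ccnb2 every HET culture was below (2.79% of all genes).

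Averaged over the 3 times, limma called 0 of the 48, with 0.0174% of all genes called, and 47 had a negative difference (median -0.27), of which 15 had an unadjusted p under 0.05. The smallest adjusted p among the 48 was 0.31, and the exception in sign was Tpx2 (0.13). Without HET culture 3 at 48 h, 0 were called, 40 were negative, the median was -0.14 and 6 had an unadjusted p under 0.05. The interaction of genotype with 48 against 12 h called 0 of the 48 and 0 of all genes, with 4 of the 48 at an unadjusted p under 0.05. The median interaction was -0.41, with 40 of 48 negative, and it was -0.06, with 27 negative, without HET culture 3 at 48 h. The rise between 12 and 48 h was therefore not shown to differ between the genotypes.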

How the data were processed

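RNA of 18 DRG neuron cultures was sequenced, 3 for each genotype at each time, and groups and replicate numbers came from the sample titles. The submitters' processing notes name CASAVA 1.8.2, edgeR and the mouse build mm10, and the aligner, counter and annotation are not given in the sources used here. Per the file headers, the authors deposited 1 table of 17198 genes with normalized counts, a signal with no whole number and no 0, plain adjusted signal columns (totals 39465712 to 44213485) and FPKM values. The logarithms of the plain columns spanned 15 of 17 possible dimensions, so 2 directions among samples had been removed, by a method the headers do not name. From the authors' deposited log2 fold changes and adjusted p-values, only their calls at 48 h are quoted. A further 24 per-sample ratio columns of the table were not used.

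The planned test for raw counts was not used because the values are not counts. Normalized counts were transformed to log2(value + 1), a minimum mean of 1 was required of each gene (0 removed), and limma 3.58.1 in R 4.3.3 was fitted to all 18 samples with 1 coefficient per group (lmFit, and eBayes with trend). Residual degrees of freedom were 12 and the prior added 4.97. They took no account of the 2 removed directions. If the normalized counts carry that adjustment, p-values may be too small. Adjustment ran over all 17198 genes in each of 12 comparisons. Replicate numbers come from the titles. Across all genes, deviations of same-numbered cultures correlated at 0.209 to 0.461 at 48 h, 0.0318 to 0.188 at 12 h and -0.207 to 0.258 at 24 h. Only those at 48 h were therefore read as pairs. The block for comparisons between genotypes still fitted number terms within every time, which left 6 residual degrees of freedom. Its estimate of the spread thus also rested on number terms at 12 and 24 h. Alternatives were another pseudocount, filter and column set, a replicate block, the removed directions as covariates, only the groups compared, and leaving out each culture. The fitting code was tested on simulated data.

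The members and lists were chosen with earlier results of these data known. Values in every culture are given for the 4 S-phase and 4 mitotic genes with the largest WT difference between 48 and 12 h, and up to 4 called genes of each other list by the same difference; those named beyond that were chosen after their values were seen. Sgol2 and Emr1 stand in the table under these older symbols, Depdc1a and 4 of 7 erythroid markers are not analysed here. Promoters came from RefSeq (GRCm38.p6), 2810417H13Rik being matched as Pclaf; Mcm4, Ccne2, Ccna2, Aurkb, Tpx2 and Foxm1 were not matched.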

Additional observations from a re-analysis of the deposited data

Results flagged for a closer look

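In 4 S-phase genes every HET culture was above every WT culture at 24 h and below every WT culture at 48 h, as in 0.884% of all genes. HET minus WT, on the log2(value + 1) scale, was 0.135 at 24 h and -0.137 at 48 h for Pcna, the sliding clamp. For Mcm5, a helicase subunit, it was 0.321 and -0.939. For Dnmt1, the maintenance DNA methyltransferase, it was 0.190 and -0.540, and for Ccne1, cyclin E1, 0.136 and -0.653. Without HET culture 3 the differences at 48 h were -0.105 for Pcna, -0.538 for Mcm5, -0.440 for Dnmt1 and -0.453 for Ccne1. The change of sign between the times was not tested, and none of the 8 differences was called in limma without the replicate block.

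Their values in each culture were as follows. Mcm5 read 287, 227 and 302 in WT and 357, 316 and 339.7 in HET at 24 h, and 970.4, 1039.8 and 717 in WT and 699, 546 and 268 in HET at 48 h. Dnmt1 read 5373, 5530.1 and 5547 in WT and 6974, 5799.9 and 6054 in HET at 24 h, and 6527, 8272 and 6793 in WT and 5058, 5501 and 4289.8 in HET at 48 h. At 48 h HET culture 3 was the lowest for both, and the other 2 HET cultures were below all WT cultures as well. Ccne1 read 498, 476 and 528 in WT and 582, 530.2 and 538 in HET at 24 h, and 756, 893 and 666 in WT and 566, 552 and 368 in HET at 48 h. Pcna read 1368, 1312 and 1373 in WT and 1386, 1438 and 1637 in HET at 24 h, and 1727, 1655 and 1697 in WT and 1617, 1532 and 1473 in HET at 48 h, so its groups were separated by small margins at both times.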

How the results depend on the processing

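Of 181 counts recomputed under the alternatives, 149 stayed within 1.5 times the reported count, 13 were higher and 19 lower. The 149 include counts reported as 0 that stayed 0, such as those between genotypes at 12 and 24 h with 1 culture left out. They are therefore no measure of how stable the counts above 0 were. For HET against WT at 48 h, reported as 0 called, the count was 19 with the replicate block, where 12.3% of all genes were called. It was 23 with the block and the removed directions. It was 3 with the block and without HET culture 3, a setting chosen after seeing the data. Leaving out 1 culture gave 0 to 12. Averaged over times, reported as 0, the block gave 3 (Tyms, Uhrf1 and Ccne2), with 3.22% of all genes called. For 24 against 12 h in WT, reported as 1, the plain adjusted columns gave 0 and leaving out 1 culture 0 to 0. The block gave 7, where it called 881 of all 17198 genes higher and 337 lower. The block with the removed directions gave 7 and only the groups compared 3. For 24 against 12 h in HET, reported as 14 either way, leaving out 1 culture gave 4 to 13. For 48 against 12 h in HET, reported as 34, only the groups compared gave 0 (38 at an unadjusted p under 0.05), and leaving out 1 culture 0 to 42. For 48 against 24 h in HET, reported as 4, the block gave 27, where it called 1155 of all 17198 genes higher and 929 lower. The block with the removed directions gave 30, only the groups compared 0 (23 at an unadjusted p under 0.05), and leaving out 1 culture 0 to 29. For the removed directions and for only the groups compared, shares of all genes are not given here. The cause of these shifts in the counts was not tested. Same-numbered cultures of different times correlated at -0.2 to 0.36, so at other times the numbers are only shared; for the 48 genes, beyond the results above, the replicate block moved no count of calls by more than 1.5 times. For 48 against 12 h in WT, leaving out 1 culture gave 40 to 42. Of the recomputed differences of the 8 genes with values in every culture, 261 kept their side of the threshold, 18 passed it newly, 33 no longer passed it and 0 reversed; all 33 are for 48 against 12 h in HET. DESeq2 was not run, because the values are not counts. Depth is unknown, so genes near a value of 1, such as 2810417H13Rik at 12 h, have no detection limit here.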
